A study of Arabidopsis thaliana with 12 samples.

Results

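The WRKY transcription factor genes of Arabidopsis thaliana were described by their CpG methylation. The set was made of the protein-coding genes on chromosomes 1 to 5 whose symbol in the RefSeq annotation of TAIR10.1 is WRKY followed by a number. This rule found 67 genes among 27444 protein-coding genes and 37899 genes of any kind on the 5 chromosomes, and it used no measured value. Another 5 genes carry a WRKY number in the annotation only as a synonym and are treated apart. The series has 12 libraries of leaf DNA from wild-type plants (ecotype Col-O), with 4 labelled SA-CNPs (salicylic acid loaded on chitosan nanoparticles), 4 labelled pathogen (inoculated with the powdery mildew fungus Podosphaera xanthii) and 4 labelled control. Young plants grew on plates of medium, to which the nanoparticles were added, or received spore drops on their leaves. The tissue is given as leaf, while the study's methods describe plants collected after their roots were cut off. Enzymatic methyl-seq was used, in which unmethylated cytosines are converted by enzymes, so that a read still carrying C at a CpG counts as methylated. The only table analysed here is 1 pooled CpG report with raw numbers of methylated and unmethylated reads per cytosine and strand. Which of the libraries were merged into it is not given. The name of the table shares its first letters with the titles of the SA-CNPs libraries, but no label or method says what it holds, so its condition is taken as not known, no treatment was compared with another, and no value has a replicate error. Libraries of the combined treatment were not analysed here. The labelled tissue could not be checked, since CpG methylation has no defining marker genes.

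WRKY proteins bind DNA through a domain of conserved residues and a zinc finger, and the W-box is the promoter element they recognise. They are sorted into group I, with a pair of such domains, group II, with a single domain and subgroups a to e, and group III, whose zinc finger has a different last residue. Many of them act in immunity, downstream of mitogen-activated protein kinases and of salicylic acid, and others act in seed, pollen, senescence or phosphate responses. In plants, CpG methylation inside a gene body is common in moderately and constantly expressed genes, while dense methylation next to a gene often marks transposon remains.

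Levels are methylated calls over all calls at the CpG cytosines of a region, with a 95% Wilson interval. These intervals cover counting error only, and they treat the calls of one read as independent, so they can be too narrow. All 8207 CpG cytosines in the 67 bodies had reads, with a median per gene between 43.5 and 72 reads and 2053 to 21311 calls per body. Of the 13995 cytosines in bodies and 1000 bp on either side, 1 was listed with 0 reads. The lowest coverage above 0 was 5 reads, so a 0 can stand for fewer than 5 reads. Comparisons between genes below are descriptions of 1 pooled table, without a test, because genes are not replicates.

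The bodies of most WRKY genes carried little CpG methylation. The median body level was 0.54% over the 67 WRKY genes (interval of the median from ranks 0.35 to 1.46%), against 4.71% over the 27262 covered protein-coding genes (4.45 to 4.98%). A body level of at least 10%, called methylated here, was reached by 16 of the 67 WRKY genes (23.9%), against 40.3% of the covered protein-coding genes. At a limit of 5% they were 18, against 49.4% of protein-coding genes, and at 20% they were 6, against 26.7%. A body level below 1% was found in 39 WRKY genes (58.2%), against 39.3% of protein-coding genes. The length of the genes was alike in both, with a median of 2006 bp for WRKY genes and 2078 bp for protein-coding genes, and so was the number of CpG cytosines in the body, with medians of 112 and 110. When each WRKY gene was set beside the protein-coding genes of its own bin of CpG number (20 bins), 46 of the 67 lay below the median of their bin. If each WRKY gene had the share of its bin, 26.2 methylated bodies would be counted, in place of the 16 observed. Over the body and 1000 bp on either side together, the median was 3.09% in WRKY genes and 8.80% in protein-coding genes, and 43 of the 67 lay below the median of their bin.

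**Figure D1:**
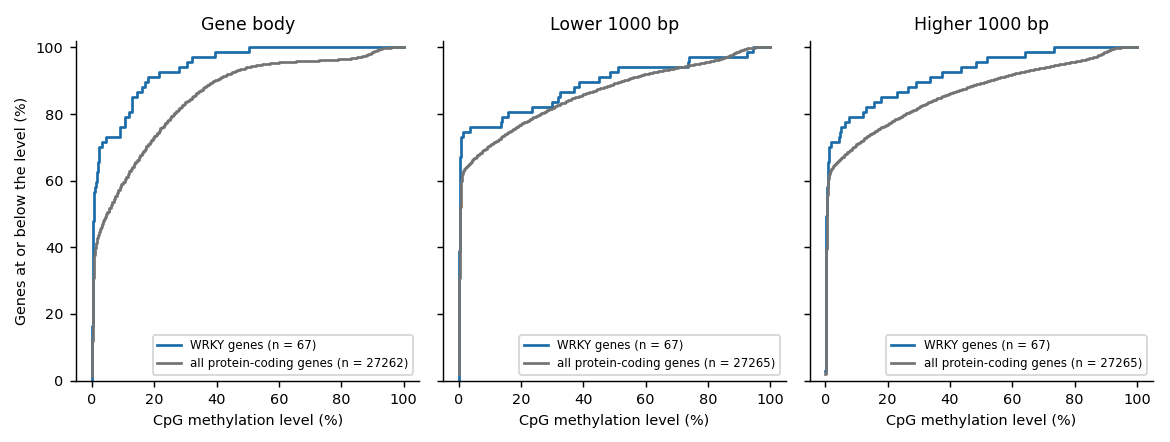
Share of genes (vertical axis, %) at or below a given CpG methylation level (horizontal axis, %) for WRKY genes (blue) and all protein-coding genes (grey), in the body and in the 1000 bp on the lower and higher coordinate side. In the body, the blue curve lies above the grey one, with medians of 0.54% and 4.71%.

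The 67 genes fell into those with methylated cytosines in the body and those without any. In 39 genes, 58.2% of the family, no body cytosine reached 25%, against 39.5% of protein-coding genes, and these were the same 39 genes as those below 1%. The highest single cytosine among them was at 19.2% in WRKY10, a regulator of endosperm and seed size also called MINI3, and no other of these genes had a cytosine above 9.38%. The lowest body level was that of WRKY22, a factor downstream of flagellin perception, at 0.079% (0.038 to 0.164%) over 148 cytosines. WRKY46, a group III factor of salicylic acid responses, had 0.083% over 68 cytosines, and WRKY45, which acts in phosphate uptake, had 0.093% over 64 cytosines. The intervals of these 3 genes overlap. In the other 28 genes, at least 1 body cytosine reached 25%. Over the family, 7528 body cytosines lay under 25%, 194 between 25 and 75% and 485 above 75%. Of 4102 CpG pairs in the bodies, 336 were at 25% or more on both strands and 7 on 1 strand alone, so the methylated CpGs of the family were methylated symmetrically.

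**Figure D2:**
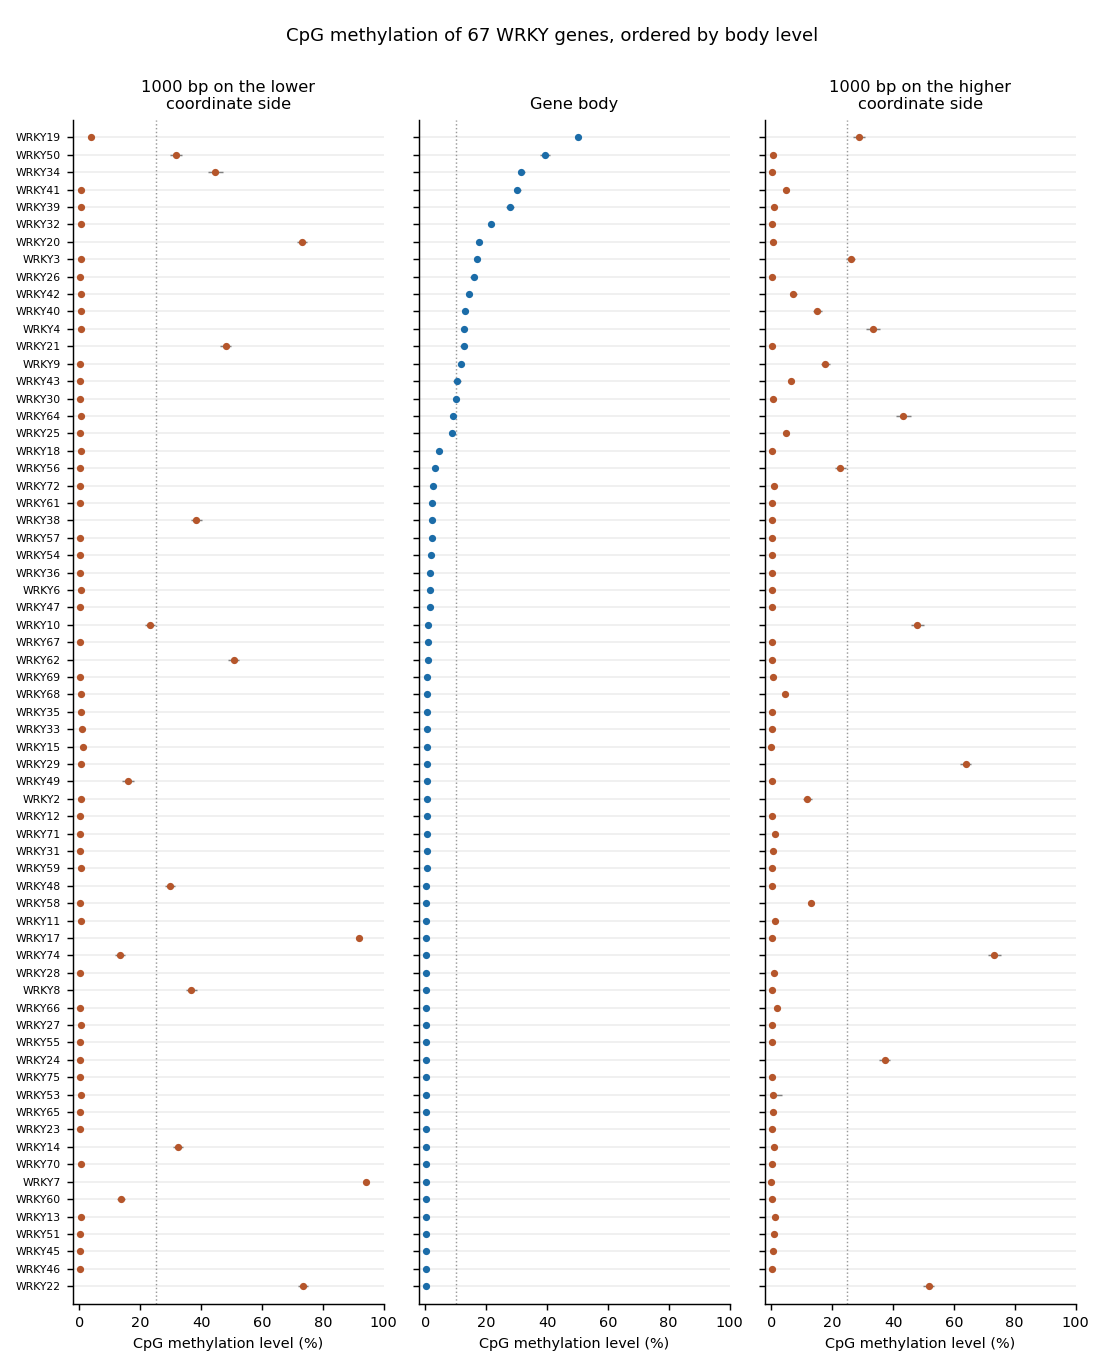
CpG methylation level (horizontal axes, %) of the 67 WRKY genes, 1 per line and ordered by body level, in the lower 1000 bp, the body and the higher 1000 bp. Points are levels, bars 95% Wilson intervals and dotted lines the limits of 10% (body) and 25% (flanks): 16 bodies and 21 flanks lie beyond them, and the flanks beyond are spread over the whole order.

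Methylated calls were concentrated in few bodies. WRKY19 (AT4G12020, chromosome 4, 7201522 to 7209692) had the highest body level, 50.3% (49.65 to 50.99%) over 384 cytosines, and it held 33.6% of all methylated body calls of the family. This gene encodes an unusual fusion of a nucleotide-binding immune receptor, a WRKY domain and a protein kinase, and at 8171 bp it lay in a bin of CpG-rich genes whose median was 27.7%, at the 87.6th percentile. In it, 204 cytosines were above 75% and 168 under 25%, in blocks that alternate along the gene. The longest block had 76 cytosines in 1036 bp at 92.4%. None of its 12 blocks came closer than 841 bp to an end of the gene.

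WRKY50 (AT5G26170, chromosome 5, 9146879 to 9148391) followed with 39.3% (37.7 to 40.9%). Its protein acts in the salicylic acid-mediated repression of jasmonate signalling. Its close relative in the same role, WRKY51, had 0.12% (0.048 to 0.316%), with the same number of cytosines in the body (60), so the intervals of this pair lie far apart. In the bin of CpG number of WRKY50 the median was 0.54%, and the gene stood at the 91.0th percentile there. WRKY39 (AT3G04670, chromosome 3, 1266056 to 1268378), known from heat tolerance, stood highest against its bin, at the 92.6th percentile with 27.9% (26.6 to 29.3%). They were the only 2 WRKY genes at or above the 90th percentile of their bin.

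WRKY34 (AT4G26440, chromosome 4, 13357596 to 13359551), which acts in pollen, had 31.6% (30.5 to 32.7%). WRKY2, its partner in pollen development, had 0.39% (0.29 to 0.52%) over 208 cytosines. WRKY41 (AT4G11070, chromosome 4, 6759098 to 6760794), of group III, had 30.2% (29.1 to 31.4%), all of it in a single block. This block held 44 cytosines in 438 bp, each between 77.4 and 100%, and began 145 bp from the lower end of the gene, while the other 68 body cytosines were under 25%. WRKY53, a group III factor of leaf senescence related to WRKY41, had 0.20% (0.13 to 0.32%) over 136 cytosines and no cytosine above 2.04%. The relatives WRKY51, WRKY2 and WRKY53 were chosen for comparison after the values had been seen.

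The remaining genes of the 10 highest lay between 14.3 and 21.4%. Against their bins of CpG number they ranged from the 46.1st percentile (WRKY42) to the 83.8th (WRKY26). WRKY42 was thus below the median of its bin, 17.1%, and WRKY20, at the 51.2nd percentile, was near it. WRKY32 (AT4G30935, chromosome 4, 15051764 to 15054107), known from light-dependent seedling development, had 21.4% (20.6 to 22.3%). WRKY20 (AT4G26640, chromosome 4, 13437005 to 13441884) had 17.6% (16.999 to 18.304%), with all 40 methylated cytosines above 75%. WRKY3 (AT2G03340, chromosome 2, 1014350 to 1017222), which acts in resistance to necrotrophic fungi, had 16.9% (16.04 to 17.80%). Its close relative WRKY4 had 12.6% (11.9 to 13.4%), and this pair was therefore methylated in both members. WRKY26 (AT5G07100, chromosome 5, 2204206 to 2205965), a factor of heat tolerance, had 15.8% (14.75 to 17.01%). WRKY42 (AT4G04450, chromosome 4, 2218042 to 2221260), which acts on phosphate transport and senescence, had 14.3% (13.7 to 14.9%). The intervals of WRKY20 and WRKY3 overlap, as do those of WRKY3 and WRKY26 and of WRKY26 and WRKY42, so the order within these neighbours is not resolved. Below the 10 highest, WRKY40, WRKY4, WRKY21, WRKY9, WRKY43 and WRKY30 lay between 10.2 and 12.9%. WRKY30 was the last above the limit, and WRKY64, with 8.93%, was the first below it. Among the 67 WRKY genes, the rank correlation of body level with gene length was 0.22 (Spearman, across genes), against 0.46 over the covered protein-coding genes.

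The methylated bodies differed in how completely their cytosines were methylated. In WRKY19, WRKY41, WRKY20, WRKY32 and WRKY4, at most 5.56% of the cytosines at 25% or more lay between 25 and 75%, so that nearly all of their cytosines lay either above 75% or under 25%. In WRKY26 this share was 91.7%, with 22 of 24 such cytosines. In WRKY40, 19 of 20 lay in that range, and in WRKY21 all 12. WRKY18, below the limit of 10%, also had all 14 of its methylated cytosines there. This was common among the 12 genes with a body level of 1 to 10%, of which only WRKY25 and WRKY57 had cytosines above 75%. Of the 14 WRKY genes with a methylated body and at least 10 cytosines at 25% or more, 4 had a share of at least 50%, against 8.73% of 9528 protein-coding genes with a body level of 10 to 60%. The medians of the share were 16.8% in the WRKY genes and 12.8% in the protein-coding genes. In a pooled table, partial methylation within each library and libraries that differ from each other cannot be told apart.

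**Figure D3:**
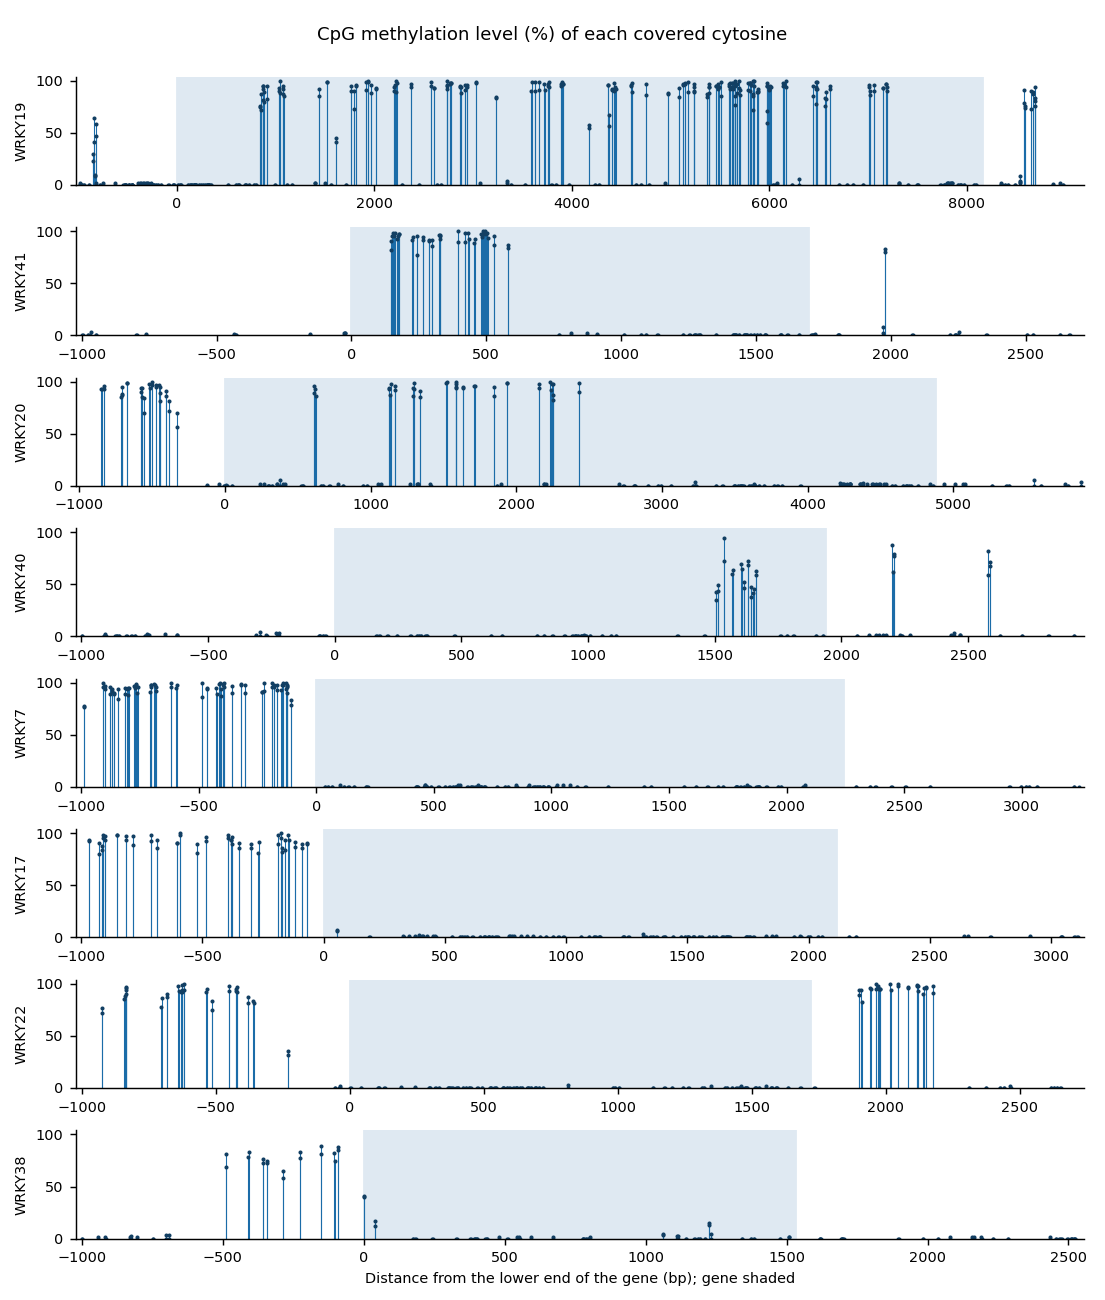
CpG methylation level (vertical axes, %) of each covered cytosine along 8 WRKY genes, by distance from the lower end of the gene (horizontal axis, bp), with the gene shaded and 1000 bp shown on either side. WRKY19, WRKY41, WRKY20 and WRKY40 carry blocks inside the body, and all of these but WRKY41 also carry some in a flank. WRKY7, WRKY17, WRKY22 and WRKY38 carry them beside a body with little methylation. The block of WRKY38 runs over the lower end of the gene.

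Stretches of at least 4 neighbouring cytosines at 25% or more were listed to see where methylation lay. Of 106 stretches in bodies and flanks, 68 were inside a body, 16 in a lower flank, 19 in a higher flank and 3 ran across a gene end. Body stretches occurred in 25 genes and were short, with a median of 6 cytosines and 30.5 bp. Flank stretches had a median of 12 cytosines and 135 bp. Both kinds were highly methylated, with a median level of 85.1% in bodies and 84.9% in flanks. Of the 68 stretches that lay wholly inside a body, 65 were more than 200 bp from both ends of the gene and none was closer than 122 bp. The 3 that ran across an end, in WRKY38, WRKY43 and WRKY56, are by definition not among the 68, and the same count was not made for protein-coding genes. In the first 100 bp inside the gene from either end, the 16 genes with a methylated body had 0.19% (0.11 to 0.33%), against 6.59% in protein-coding genes with a body level of 10 to 60%. Between 200 and 299 bp inside the gene, the level was 16.6% in the 16 WRKY genes and 8.67% in those protein-coding genes. Farther in, between 900 and 999 bp, it was 17.7% in the WRKY genes and 34.7% in the protein-coding genes. Distance is counted from the nearer end, so shorter genes, such as WRKY50 (1513 bp), do not reach this bin. The bins therefore do not hold the same genes, and a change along them can be a change of genes. The 16 genes were chosen by their body level, so the levels inside the gene follow in part from that choice.

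**Figure D4:**
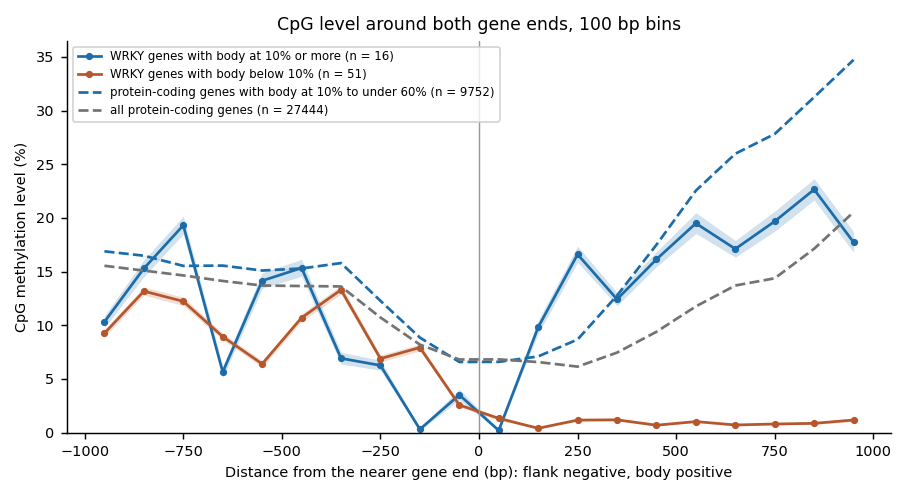
CpG methylation level (vertical axis, %) in bins of 100 bp by distance from the nearer gene end (horizontal axis, bp, flank negative and body positive), both ends pooled without orientation. Solid lines are WRKY genes with a methylated body (16) and the other 51, dashed lines protein-coding genes, and bands are 95% Wilson intervals. The 16 genes fall to 0.19% in the first bin inside the gene. Shorter genes do not reach the bins farthest inside, so the genes behind the bins differ.

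By structural group, the count of methylated bodies is read beside 23.9% of the family and 40.3% of protein-coding genes. Group I had 6 methylated bodies among 10 genes and a median of 14.2%, with a range of 0.31 to 31.6%. WRKY34, WRKY32, WRKY20, WRKY3, WRKY26 and WRKY4 were these 6, and WRKY25 followed with 8.86% (8.05 to 9.73%). The other 3 genes of the group were below 1%. They included WRKY33, the main activator of camalexin synthesis and of resistance to necrotrophs, with 0.51% (0.35 to 0.74%). Group IIb had methylated cytosines in 7 of 8 genes, but 5 of these 7 had no more than 7 such cytosines. Its median was 1.84%, and WRKY42 and WRKY9 were its 2 bodies above 10%. Group IIe had none among 7 genes, with a highest level of 0.64%. Group IIc had 2 methylated bodies among 17 genes (median 0.34%), group IId 2 among 7 (0.30%) and group III 2 among 12 (0.77%). A flank at 25% or more was found in 4 of 7 genes of group IId, 3 of 7 of group IIe, 4 of 10 of group I, 3 of 12 of group III, 4 of 17 of group IIc and none of the 8 of group IIb or the 3 of group IIa, beside 29.9% of the family and 33.8% of protein-coding genes. Groups I and III were assigned from general knowledge after values had been seen, and 3 genes were left unplaced. These were WRKY19 (50.3%), WRKY10 (0.81%) and WRKY45 (0.093%), so the counts and median of group I depend on where they belong. With 3 to 17 genes per group and related genes within each, these counts describe the groups and were not tested.

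**Figure D5:**
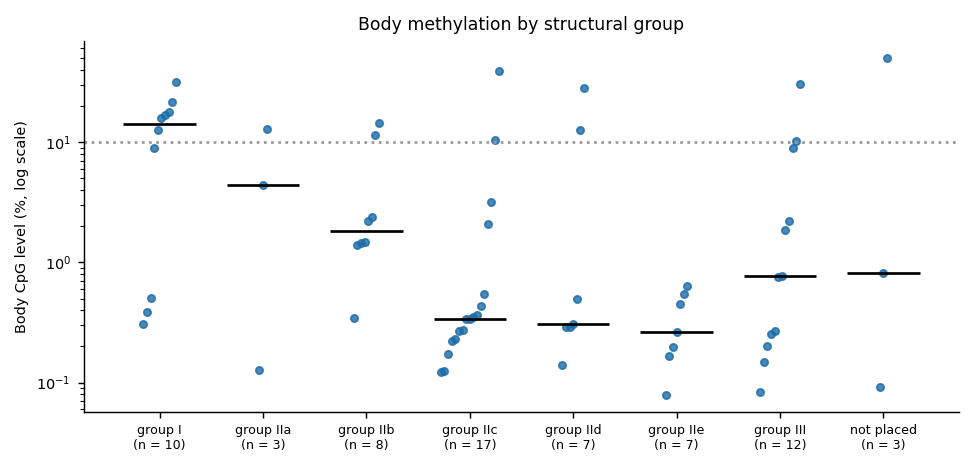
Body CpG methylation level (vertical axis, %, log scale) of each WRKY gene by structural group, with the group median as a bar and the limit of 10% as a dotted line. Group I, as assigned here after values had been seen, has 6 of 10 genes above the limit, and group IIe has none of 7.

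The lists by role had body levels close to those of the family. Of 27 WRKY genes listed for immunity, 5 had a methylated body (18.5%) and 17 were below 1% (62.96%), with a median of 0.34%. Of 12 listed for development, senescence, phosphate or drought, 2 had a methylated body (16.7%) and 8 were below 1% (66.7%), with a median of 0.36%. In the family, 23.9% had a methylated body and 58.2% were below 1%, and among protein-coding genes these shares were 40.3% and 39.3%. The lists lay farther apart in the flanks. A flank at 25% or more was found in 11 of the 27 immunity genes (40.7%). In the second list it was found in 1 of the 12 (8.33%), beside 29.9% of the family and 33.8% of protein-coding genes. Part of this methylation belongs to neighbouring genes. For WRKY4, WRKY29 and WRKY50 of the immunity list, all methylated calls of that flank lay inside another gene. The same holds for WRKY34, the only such gene of the second list. WRKY53 is in both lists, so they are not separate sets of genes. Over all calls, the lower flank had 21.3% in the immunity genes and 2.4965% in the second list, and this difference was not tested. The medians of the lower flank were 0.49% and 0.31%, so the difference over all calls rested on a minority of the genes. WRKY7 (94.3%), WRKY17 (92.0%) and WRKY22 (73.6%) had the highest lower flanks of the immunity list. Of 10 leading factors of salicylic acid and basal defense responses, which are part of the 27, 1 had a methylated body and 6 were below 1%, with a median of 0.63%. WRKY50, which also acts in salicylic acid responses and is not among the 10, had 39.3%. WRKY70, a node between salicylic acid and jasmonate responses, had 0.15% (0.078 to 0.282%) over 100 cytosines. WRKY54, which acts together with it, had 1.85% (1.53 to 2.22%), with its 4 methylated cytosines in a stretch of 8 bp at 40.3%. WRKY38 and WRKY62, repressors of basal defense, had 2.19% (1.80 to 2.67%) and 0.76% (0.50 to 1.13%).

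The group IIa factors WRKY18, WRKY40 and WRKY60, which act together in defense and abscisic acid responses, were separated from each other. WRKY40 had 12.9% (12.1 to 13.9%), and its 20 methylated cytosines formed 1 stretch of 159 bp at 56.7%, 274 bp from the higher end of the gene. WRKY18 had 4.44% (4.01 to 4.90%), in 2 stretches at 42.6% and 46.9%. WRKY60 had 0.13% (0.058 to 0.277%) and no cytosine above 2.00%. The intervals of the 3 genes do not overlap.

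Flanks of 1000 bp were methylated in a part of the family and were empty in most. The annotation used here gives no strand, so flanks are named by coordinate and not as promoter and terminator. The median was 0.35% on the lower side and 0.44% on the higher side of WRKY genes, against 0.55% and 0.56% for protein-coding genes. A level of at least 25% was reached by 21 of 134 flanks (15.7%), against 20.4% of the flanks of protein-coding genes. On the lower side they were 12, against 20.5% of protein-coding genes, and on the higher side 9, against 20.3%. These flanks belonged to 20 genes (29.9%), against 33.8% of protein-coding genes, a share near the background. In 13 of the 20 genes the body was below 10%, which is 19.4% of the family against 15.9% of protein-coding genes, and in 11 it was below 1%. The body and both flanks were below 1% in 18 WRKY genes (26.9%), against 19.6% of the covered protein-coding genes. WRKY70, WRKY46, WRKY53 and WRKY33 were among these 18. Bodies below 1% were more frequent in WRKY genes (58.2%) than in protein-coding genes (39.3%). Shares that combine body and flank therefore reflect the low bodies too, and do not show that the flanks differ.

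The most highly methylated flanks were those of WRKY7 and WRKY17, calmodulin-binding factors of group IId that restrain basal defense. In the 1000 bp below WRKY7 (AT4G24240, chromosome 4, 12571538 to 12573783), all 80 cytosines were at 77.1% or more and the level was 94.3% (93.59 to 94.97%). This stretch held every cytosine of the window and ended 105 bp before the gene, whose body had 0.14% (0.083 to 0.241%). Below WRKY17 (AT2G24570, chromosome 2, 10437353 to 10439469), all 56 cytosines were at 80% or more, at 92.0% (91.0 to 92.9%), and the stretch ended 69 bp before the gene. The body of WRKY17 had 0.29% (0.20 to 0.41%). WRKY11, which acts together with WRKY17, had 0.34% in the lower flank and 1.18% in the higher flank.

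WRKY22 (AT4G01250, chromosome 4, 522530 to 524249) was the only gene of the family with both flanks at 25% or more. It had 73.6% (71.97 to 75.19%) on the lower side and 51.7% (49.9 to 53.6%) on the higher side, around the least methylated body of the family. Of the methylated calls in its lower flank, 58.3% lay inside the neighbouring gene AT4G01240. WRKY29, which acts with WRKY22 downstream of flagellin perception, had 63.9% (62.1 to 65.7%) on its higher side. All methylated calls of this flank lay inside GH9B15, a neighbouring glycosyl hydrolase gene.

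WRKY38 and WRKY62 both carried a methylated block on the lower side. The flank of WRKY38 (AT5G22570, chromosome 5, 7495455 to 7496990) had 38.5% (36.5 to 40.4%), with a stretch of 20 cytosines at 73.6% that ran over the lower end of the gene. The flank of WRKY62 (AT5G01900, chromosome 5, 350925 to 352095) had 50.7% (48.95 to 52.44%), with 28 cytosines at 86.6% in a stretch that ended 467 bp before the gene. Neither block overlapped another annotated gene.

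Other lower flanks at 25% or more were those of WRKY20 (73.1%), WRKY21 (48.1%), WRKY34 (44.7%), WRKY8 (36.8%), WRKY14 (32.4%), WRKY50 (31.7%) and WRKY48 (29.9%). WRKY8 and WRKY48 are defense factors whose bodies were at 0.27% and 0.34%. Other higher flanks at 25% or more were those of WRKY74 (73.3%), WRKY10 (48.01%), WRKY64 (43.3%), WRKY24 (37.2%), WRKY4 (33.4%), WRKY19 (28.8%) and WRKY3 (26.1%). WRKY10 had a further stretch of 10 cytosines at 80.8% on its lower side, 314 bp from the gene, and the level of that flank was 23.2%. Next below the limit on the higher side was WRKY56, at 22.6%.

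The methylation of a flank was in part that of a neighbouring gene. In 7 of the 21 flanks, most methylated calls lay inside another annotated gene. For WRKY34 this was CSN6B, a COP9 signalosome subunit gene, and for WRKY64 it was SUC7, a sucrose transporter gene. For WRKY24 it was AT5G41580, known as PIAL2, a SUMO ligase gene. For WRKY4 and WRKY50 it was AT1G13970 and AT5G26160, which have no gene name in the annotation. For WRKY29 and WRKY22 it was the neighbour already named. In 13 of the 21 flanks, no methylated call lay inside another annotated gene, and in that of WRKY7 27.4% lay in a noncoding RNA gene. Transposon fragments outside annotated genes were not looked for.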

How the data were processed

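Per the study's methods, reads passed Trimmomatic, were mapped by bowtie 2 on the TAIR10.1 genome converted by Bismark, and stayed in only if they mapped uniquely and were no duplicates. The authors deposited raw counts of methylated and of unmethylated reads per CpG cytosine and strand, pooled over libraries, with no normalization. The lowest coverage above 0 was 5 reads, the nuclear median 58. Coverage sets the counting interval, given for each level. As the libraries behind it are not named, it counts as 1 sample without a known condition, and no test was made. The structural groups I and III and the genes not placed (WRKY10, WRKY19, WRKY45) were written from general knowledge after values had been seen, since protein sequences were not used here. Promoter sequences were not analysed here either. The members, lists and limits were chosen with earlier results of these data known. The genes named are the 10 with the highest body level, those with a flank at 25% or more, the 3 lowest bodies with at least 50 cytosines, the leading salicylic acid factors, partner genes at 10% or more, and relatives of these, which were added after values had been seen. Bins were quantiles of covered CpG number. Levels were computed in pandas 2.3.3 and numpy 2.4.6 under Python 3.11.15, intervals with scipy 1.17.1 and plots with matplotlib 3.10.9, and the code for levels was tested on simulated data. Alternatives were coverage limits, summed strands, the mean of cytosine levels, other flanks, other limits and other bins.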

Additional observations from a re-analysis of the deposited data

How the results depend on the processing

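No paired analysis was possible because only 1 pooled sample was at hand. Of 47 summary values recomputed with an alternative, 42 stayed within the interval of the median or within 1.5 times the count, 6 of them with a coverage limit of 1 read, which could not move them. With flanks of 500 bp the median flank level was 0.31% and 12 genes had a methylated flank (17.9%, beside 25.1% of protein-coding genes), where 1000 bp gave 0.38% and 20 genes. With flanks of 2000 bp the median was 0.86%. With a body limit of 20% the methylated bodies numbered 6, against 26.7% of protein-coding genes. With a flank limit of 50% the genes with a methylated flank numbered 7 (10.4%, beside 18.1%), and without the bases of other annotated genes 14 (20.9%, beside 22.4%). The median of body and flanks lay within its wide interval but moved from 3.09% to 1.45% with 500 bp, 6.03% with 2000 bp and 1.64% without other genes, beside 6.79%, 10.999% and 7.62% in protein-coding genes. Of 335 body levels of single genes, 328 stayed within their counting interval. The limit of 1 read could not move any of them, and summing strands keeps nearly the same calls, so 328 overstates the agreement. The other 7 moved with the mean of cytosine levels, WRKY41 to 36.7% from 30.2%. The count of methylated bodies was 15 with that mean and 15 without WRKY19, an alternative chosen after seeing the data. Counting error is small at these depths, and no replicate shows how the levels vary between plants.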

Other observations

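Of the 5 genes with a WRKY number only as a synonym, 3 had a methylated body, beside 40.3% of protein-coding genes. ZAP1 (WRKY1) had 49.3% (48.1 to 50.5%), with flanks at 25.98% on the lower and 77.7% on the higher side. TTR1 (WRKY16) had 22.6% (21.9 to 23.3%) and RRS1 15.4% (14.89 to 15.96%). The last of these encodes an immune receptor with a WRKY domain, as TTR1 does. TTG2 (WRKY44), which acts in trichome and seed coat development, had 1.87% (1.55 to 2.26%), and ABO3 (WRKY63), of drought responses, had 0.26% (0.13 to 0.52%).

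Genes that act with WRKY proteins were measured in the same way. Of 8 kinases listed upstream of them, 4 had a methylated body, MEKK1 with 29.3% (28.4 to 30.2%), MPK6 with 17.2% (16.47 to 17.99%), MPK4 with 17.003% (16.35 to 17.68%) and MKK2 with 15.2% (14.3 to 16.2%). This count is near the 40.3% of protein-coding genes. Both flanks of MEKK1 were methylated as well, with 64.4% on the lower and 70.6% on the higher side. MPK3, which acts beside MPK6, had 1.11% (0.89 to 1.38%). None of the 3 VQ proteins that bind WRKY factors (MKS1, SIB1, SIB2) had a methylated body, while MKS1 had 45.3% on its lower side and SIB1 53.9% on its higher side. Of 5 target genes, 1 had a methylated body, beside 40.3% of protein-coding genes, and their median was 6.59%. It was NPR1, the salicylic acid receptor gene, with 21.1% (20.4 to 21.9%) and 47.8% on its higher side. PAD3, the last enzyme of camalexin synthesis, had 0.58% in the body and 74.9% on its higher side.

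Other families of transcription factors, chosen after the values of the WRKY genes had been seen, had low bodies as well. The median body level was 0.42% over 115 genes with a MYB symbol, 0.97% over 79 with a NAC symbol and 0.28% over 21 with an ERF symbol, beside 0.54% over the 67 WRKY genes. A body level of at least 10% was reached by 4.35% of the MYB genes, 12.7% of the NAC genes and 4.76% of the ERF genes, beside 23.9% of the WRKY genes. The differences between the families were not tested.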
